A study of Homo sapiens with 23 samples.

Results

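The genes described here are 35 genes whose products are mostly plasma proteins made by the liver, measured in cultures that were being differentiated into heart muscle cells. They were chosen as a named set by their known roles: 7 carriers and binding proteins, 9 apolipoproteins, 8 clotting and fibrinolysis proteins, 8 protease inhibitors, fetuins and heavy chains of the inter-alpha-trypsin inhibitor (ITIH), and 3 intracellular or membrane proteins of the same cells. All 35 were found among the 57477 genes of the count table. H1-hESC, an established human embryonic stem cell line, was taken through directed cardiomyocyte differentiation, and total RNA was sequenced from 23 libraries. All libraries are labelled wild type (WT) and come from this 1 line.

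The stages, as labelled, were stem cells at day 0, mesendoderm at day 1, cardiac mesoderm at day 3, cardiac progenitors at days 5 and 7, and cardiomyocytes at days 10, 14 and 28. Stem cells were grown in mTeSR1 medium and cardiomyocytes in RPMI medium with insulin. Each day had 3 libraries, except day 10 with 2. Nothing in the labels says whether the libraries of a day came from separate cultures, so the p-values below measure only the spread between these libraries, which may be technical. Each comparison sets a day against an earlier one, and asks which of the plasma protein genes differed between those stages.

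In the body, hepatocytes of the fetal and adult liver secrete most plasma proteins, and the visceral endoderm of the yolk sac makes many of the same proteins before the liver forms. These proteins carry hormones, iron, heme and lipids, form clots and limit proteases. Hepatic and endodermal transcription factors of the HNF4, FOXA and C/EBP families bind the promoters of many of these genes. Heart muscle arises from mesoderm, but heart progenitors and the foregut endoderm that gives rise to the liver lie side by side in the embryo and answer to overlapping signals.

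Promoters are shown for 5 members that the results below turn on, because the set is known for shared binding motifs near its transcription starts. The sequences are from RefSeq on GRCh38.p14 and run 5′ to 3′ on the gene's own strand, each covering 250 bases before to 50 bases after the start. The window of AFP lies at chr4:73435971-73436270 on the plus strand, ALB at chr4:73404037-73404336 on the plus strand, FGA at chr4:154590693-154590992 on the minus strand and AHSG at chr3:186612810-186613109 on the plus strand. SERPINA1 has 2 RefSeq windows, and the downstream one, at chr14:94388553-94388852 on the minus strand, is shown. Capitals mark matches on either strand to 1 of the 6 motifs searched, which are spelled out in the next paragraph.
AFP: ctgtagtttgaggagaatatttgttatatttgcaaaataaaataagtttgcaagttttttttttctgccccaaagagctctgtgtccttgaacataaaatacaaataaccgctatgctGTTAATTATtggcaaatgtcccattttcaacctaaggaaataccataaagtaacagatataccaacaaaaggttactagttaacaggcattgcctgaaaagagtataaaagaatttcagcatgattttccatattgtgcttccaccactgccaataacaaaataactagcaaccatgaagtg
ALB: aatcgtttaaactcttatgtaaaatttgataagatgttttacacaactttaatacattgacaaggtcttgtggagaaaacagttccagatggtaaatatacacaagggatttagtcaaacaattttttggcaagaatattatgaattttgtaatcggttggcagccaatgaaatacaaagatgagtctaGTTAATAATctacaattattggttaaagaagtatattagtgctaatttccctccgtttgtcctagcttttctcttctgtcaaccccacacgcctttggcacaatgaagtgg
FGA: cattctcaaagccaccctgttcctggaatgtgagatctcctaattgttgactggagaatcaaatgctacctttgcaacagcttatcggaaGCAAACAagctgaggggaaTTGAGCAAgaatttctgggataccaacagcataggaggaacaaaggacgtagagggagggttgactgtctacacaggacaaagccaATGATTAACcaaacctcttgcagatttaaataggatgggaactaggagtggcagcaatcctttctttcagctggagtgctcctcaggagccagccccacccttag
AHSG: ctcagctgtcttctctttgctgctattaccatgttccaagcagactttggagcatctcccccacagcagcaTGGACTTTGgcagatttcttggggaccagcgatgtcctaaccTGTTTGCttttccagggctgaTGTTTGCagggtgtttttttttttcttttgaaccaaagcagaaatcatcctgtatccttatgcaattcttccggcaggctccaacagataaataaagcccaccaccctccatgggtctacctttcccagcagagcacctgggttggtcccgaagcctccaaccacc
SERPINA1: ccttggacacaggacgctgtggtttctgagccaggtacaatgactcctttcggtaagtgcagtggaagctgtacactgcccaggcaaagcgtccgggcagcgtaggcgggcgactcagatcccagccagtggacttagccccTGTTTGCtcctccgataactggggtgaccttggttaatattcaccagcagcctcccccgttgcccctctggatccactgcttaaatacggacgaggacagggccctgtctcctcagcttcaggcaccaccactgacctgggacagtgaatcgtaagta

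The homeodomain motif, searched as GTTAATNAT, was found in AFP with its first base 132 bases before the start, in ALB at 61 bases before it and in FGA, on the opposite strand, at 55 bases before it. PLG also held it, which made 4 of the 29 members with a RefSeq window, while 0.79% of the 35116 windows of this length, and 0.96% of genes with a window, held it. The HNF4 motif CAAAGTCCA was in AHSG alone of these members and in 0.38% of windows (0.47% of genes). The nuclear receptor motif CAAAGGTCA was in VTN alone and in 0.41% of windows (0.50% of genes). Of the forkhead motifs, TGTTTAC was in APOA2 and SERPINA6 and in 3.42% of windows (4.19% of genes). TGTTTGC was in 7 members (AMBP, FGA, VTN, SERPINA1, SERPINA6, AHSG and ITIH4) and in 3.89% of windows (4.76% of genes). The C/EBP motif TTGCNCAA was in TF, FGA, VTN and FETUB and in 2.61% of windows (3.22% of genes). No 2 matches in the printed windows overlap. A match describes the letters of the window and was not tested as a binding site. The members without an entry were APOC3, APOA1, ITIH2, TTR, APOB and SERPINC1.

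Library totals ran from 4330334 to 22089595 counts. Levels below are CPM, counts per 1000000 counts, on library sizes scaled by the trimmed mean of M-values (TMM). The stage labels were checked against marker genes. A list of 12 cardiomyocyte genes summed to between 35340 and 49580 CPM at day 28 and between 56.9 and 58.0 CPM at day 0, and 6 pluripotency genes summed to between 2.08 and 2.73 CPM at day 28 and between 6813 and 7111 CPM at day 0. As a check of the hepatic label, 23 hepatocyte enzymes and transporters summed to no more than 210.2 CPM in any library from day 7 on. That list summed to between 43.6 and 49.4 CPM at day 0, between 54.4 and 66.4 CPM at day 7 and between 47.0 and 52.3 CPM at day 28. In between, it was 72.2 and 79.1 CPM at day 10 and 85.1, 129.3 and 210.2 CPM at day 14. Each of these libraries was above every library of days 0, 7 and 28. The day 28 range thus overlapped that of the stem cells.

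Among the libraries, day 10 replicate 1 and day 14 replicate 1 stood below the others of their days in nearly all members. At day 10, replicate 2 was above replicate 1 in 26 of the 26 members with at least 30 counts at that day, with a median ratio of 3.46. At day 14, replicates 2 and 3 were above replicate 1 in 29 of 29 such members, with median ratios of 3.05 and 4.88. Counts of called members in comparisons with these days are also given with libraries left out. Single genes are given so only where stated, and the other lists are given with all libraries only.

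Summed over the 35 genes, the level lay between 30.1 and 54.8 CPM in the libraries of days 0 to 3. It was 728.1, 406.9 and 623.9 CPM in the 3 day 5 libraries and 665.2, 672.2 and 699.4 CPM in the 3 day 7 libraries. The sum was 980.0 and 3488 CPM in the 2 day 10 libraries, 1776, 6868 and 9247 CPM at day 14, and 722.5, 1088 and 1224 CPM at day 28. The lowest day 14 library was above every day 28 library and below the higher day 10 library. By mean level, 25 of the 35 members were highest at day 14. HPX, APOM, F2 and VTN were highest at day 7, TTR and MTTP at day 5, APOC1 at day 3, ITIH4 at day 1, and APOA4 and APOC2 at day 10. ITIH4 had 15 counts at day 1, and APOA4 and APOC2 had 18 and 3 at day 10. APOH, FETUB and SERPINC1 had 20, 24 and 28 at day 14. The peak days of these members rest on few counts. Others were near ties. F2 averaged 30.3 CPM at day 7 and 29.2 at day 5, and APOC1 30.3 at day 3 and 29.1 at day 5. MTTP averaged 62.4 ± 26.0 CPM (SD) at day 5 and 58.4 ± 32.8 at day 14. ALB averaged 18.0 ± 11.8 CPM at day 14 and 15.0 ± 14.9 at day 28. The share of all genes highest at day 14 is not given here. In RNA from whole cultures, fewer cells of a type and less RNA per cell cannot be told apart.

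**Figure D1:**
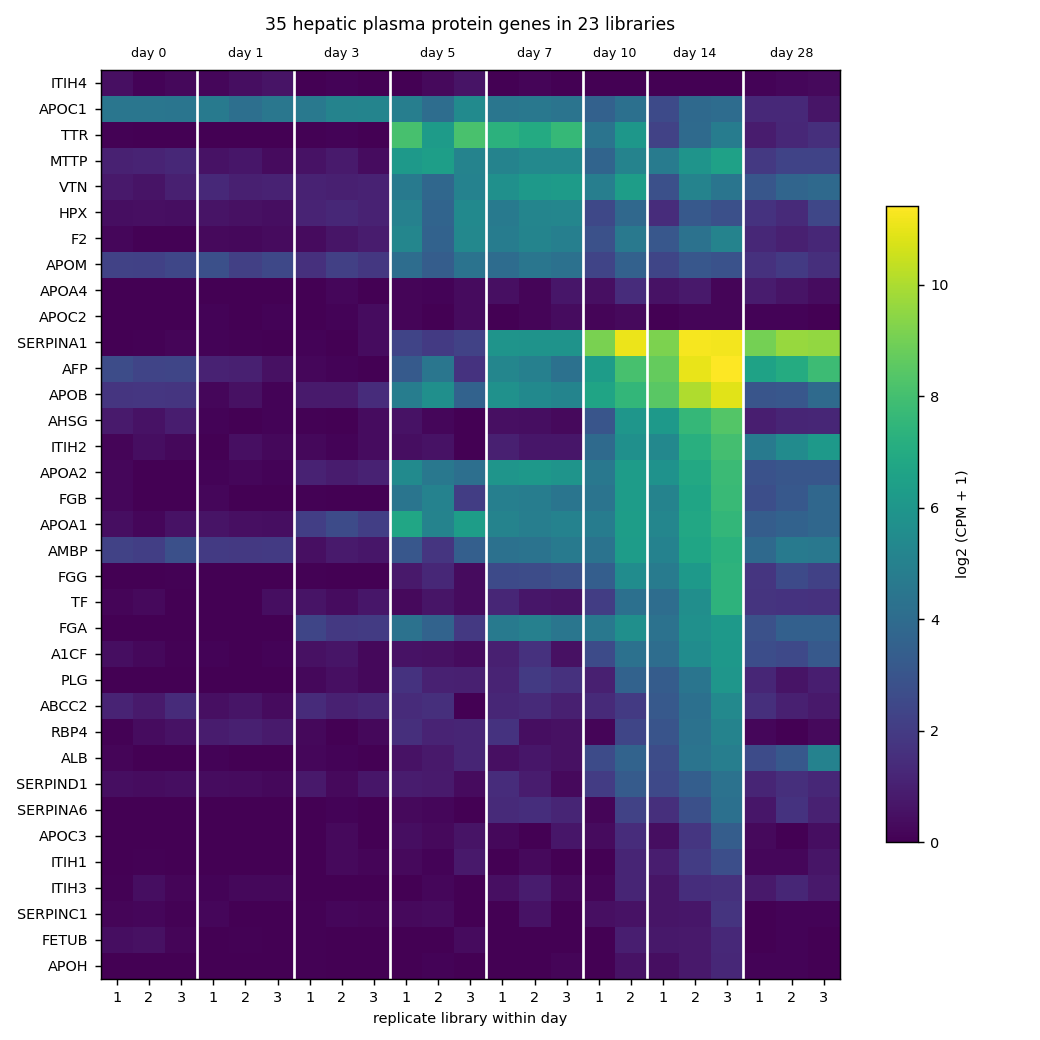
Level of each of the 35 genes (down the page, ordered by the day of their highest mean) in each of the 23 libraries (across, grouped by day), as log2 (CPM + 1). Most members are brightest in replicates 2 and 3 of day 14, while TTR, MTTP, VTN, HPX, F2 and APOM have their highest means at days 5 and 7.

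Tests ran across 22245 genes with edgeR's quasi-likelihood test, with Benjamini-Hochberg adjustment over all of them and calls at an adjusted p under 0.05. Of the members, 30 passed the filter on low counts; a gene can pass through the days at which it is high, so counts over these 30 are not counts over the set. The 5 that did not pass were APOA4 (an intestinal and hepatic apolipoprotein), APOC2 (the activator of lipoprotein lipase), APOH (beta-2-glycoprotein I), SERPINC1 (antithrombin) and ITIH4. None of these 5 was above 2.27 CPM in any library, the value of SERPINC1 in day 14 replicate 3.

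At day 3 the shares of members that moved were near or below those of all genes. Compared with day 0, 4 of 30 were called higher, where 19.1% of all tested genes were, and 5 of 30 were called lower, where 17.9% of all genes were. The 4 higher ones were HPX, which binds heme, APOA1 and APOA2, the main proteins of high-density lipoprotein, and FGA, the alpha chain of fibrinogen. FGA had 4.30, 2.72 and 3.01 CPM at day 3 and 0 counts in every day 0 library, at least 63.5-fold higher when 3 counts are set as the floor over day 0. The 5 lower ones were AFP, AMBP, AHSG, FETUB and ITIH3. AFP had 0.133, 0.0777 and 0 CPM at day 3, against 5.35, 4.14 and 4.20 CPM at day 0. The count of lower calls was 3 or 2 when day 0 replicate 1 or 2 or any 1 of the day 3 libraries was left out, so it rests on single libraries.

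More members rose at day 5 than at day 3. Compared with day 3, 16 of 30 members were called higher at day 5, where 10.3% of all genes were, and 0 were called lower, where 6.33% of all genes were. Neither an unadjusted p under 0.05 nor DESeq2 gave a lower member. The median log2 change of the 30 was 2.97, and that of all genes 0.01. TTR, which carries thyroxine and the retinol-binding protein, had 273.1, 75.2 and 277.0 CPM at day 5 and at most 0.0777 CPM at day 3 (log2 change 11.90 ± 0.93 SE, adjusted p = 1.69e-09). MTTP, which loads lipid onto APOB, had 69.9, 83.7 and 33.5 CPM at day 5, against 0.488, 0.777 and 0.301 CPM at day 3. F2, the precursor of thrombin, averaged 29.2 ± 15.8 CPM at day 5, against 0.537 ± 0.268 CPM at day 3 (SD, n = 3 each, as for the other means of these days). No day 5 library overlapped the day 3 libraries in any of these 3 genes. In the same comparison, 9 of 12 cardiomyocyte genes and 7 of 9 epicardial and fibroblast genes were called higher, with 0 lower in either list. Of 18 endodermal and hepatic transcription factors 9 were called higher and 2, PROX1 and SOX17, lower.

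The summed levels of days 7 and 5 overlapped and a few members moved. At day 7, 4 of 30 were called higher, where 5.33% of all genes were, and 0 lower, where 5.02% of all genes were; 1 member was lower at an unadjusted p under 0.05 and 0 with DESeq2. The 4 were SERPINA1, the elastase inhibitor alpha-1-antitrypsin, AMBP, the precursor of alpha-1-microglobulin and bikunin, FGG, the gamma chain of fibrinogen, and VTN, the adhesive protein vitronectin. SERPINA1 had 59.3, 56.6 and 56.5 CPM at day 7, against 4.08, 2.85 and 3.72 CPM at day 5 (log2 change 4.04 ± 0.52 SE, adjusted p = 5.19e-06). Without day 7 replicate 2 or day 7 replicate 3 the higher count was 2 or 1, and without day 5 replicate 2 there was 1 lower call. The calls of AMBP and VTN were also lost without day 5 replicate 1 or day 5 replicate 2, and that of FGG without day 5 replicate 1.

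At day 10, compared with day 7, 10 of 30 members were called higher, where 4.16% of all genes were, and 3 were called lower, where 3.49% of all genes were. The higher ones were AFP, ALB, TF, APOB, FGG, SERPIND1, SERPINA1, AHSG, ITIH2 and A1CF, and the lower ones TTR, HPX and APOM. The median log2 change was 1.33 for the 30 and 0.03 for all genes. Higher calls fell to 3 without day 10 replicate 2, the higher library of that day. Lower calls were 0 without day 10 replicate 1, without day 7 replicate 2 or without day 7 replicate 3, and 0 without both low libraries of days 10 and 14.

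Between day 10 and day 14, 8 of 30 members were called higher at day 14, where 1.64% of all genes were, and 0 lower, where 2.11% of all genes were; 2 were lower at an unadjusted p under 0.05 and 0 with DESeq2. The 8 were AFP, RBP4, TF, APOB, AHSG, ITIH2, A1CF and ABCC2. This count depended on the libraries: it was 0 without day 10 replicate 1, 3 without day 14 replicate 3 and 1 without the low libraries of both days. Without day 10 replicate 1 or day 14 replicate 2, 1 member was called lower.

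At day 28, compared with day 14, 26 of 30 members were called lower, where 7.78% of all genes were, and 0 higher, where 7.96% of all genes were. Neither an unadjusted p under 0.05 nor DESeq2 gave a higher member. The median log2 change was -3.42 for the 30 and -0.03 for all genes. All 6 tested apolipoproteins and all 3 intracellular or transport genes were lower, as were 6 of 7 clotting genes, 6 of 7 inhibitors, fetuins and ITIH chains, and 5 of 7 carriers. The 4 that did not pass were ALB, HPX, VTN and ITIH3. Leaving out any 1 library of the compared days gave between 20 and 27 lower calls. The fit without the low libraries of days 10 and 14 left 1 library at day 10 and applied the filter on low counts anew. It need not have tested the same 30 members, so its count is not given here.

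**Figure D2:**
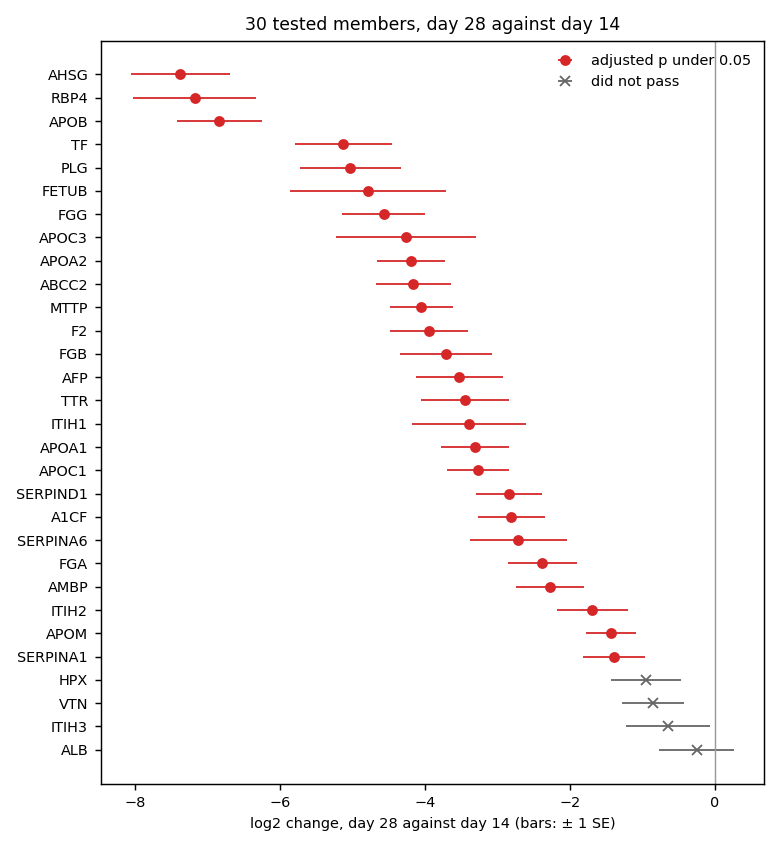
Log2 change of the 30 tested members at day 28 against day 14 (horizontal axis, points with bars of 1 SE), by gene. Filled points were called lower and crosses did not pass; values run from -7.38 for AHSG to -0.25 for ALB.

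Set against day 7, day 28 was split. Of 30 members, 5 were called higher at day 28, where 25.0% of all genes were, and 12 lower, where 23.6% of all genes were. AFP, ALB, SERPINA1, ITIH2 and A1CF were higher. TTR, HPX, APOA1, APOA2, APOB, APOC1, APOM, FGA, FGB, F2, VTN and MTTP were lower. The higher calls were 16.7% of the 30 and the lower calls 40.0%, and the median log2 change was -0.57. By role, 5 of 6 apolipoproteins and 4 of 7 clotting genes were lower with 0 higher, and 2 of 7 inhibitors, fetuins and ITIH chains were higher with 0 lower. Carriers counted 2 higher and 2 lower of 7, and the intracellular or transport genes 1 higher and 1 lower of 3; differences between roles were not tested. The comparisons with day 28 share its libraries and are given side by side.

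Of the carriers, AFP, the main albumin-like carrier of fetal plasma, had 36.2, 29.9 and 17.9 CPM in the day 7 libraries, 77.2 and 271.2 CPM at day 10, 416.7, 2080 and 2722 CPM at day 14, and 95.6, 130.3 and 226.9 CPM at day 28. Each day 14 library was above every library of the other days. At day 28 its log2 change against day 14 was -3.53 ± 0.60 SE (edgeR quasi-likelihood test, adjusted p = 0.000131), and against day 7 it was 2.44 ± 0.58 SE (adjusted p = 0.00137). ALB, the main carrier of adult plasma, had 0.392, 0.601 and 0.414 CPM at day 7, 5.16 and 11.6 CPM at day 10, 5.29, 20 and 28.6 CPM at day 14, and 5.16, 7.71 and 32.2 CPM at day 28. Its highest day 28 library was above all day 14 libraries while its lowest was below all of them. The day 28 change was -0.25 ± 0.52 SE against day 14 (adjusted p = 0.815) and 4.95 ± 0.76 SE against day 7 (adjusted p = 8.98e-06), or 3.70 against day 7 without day 28 replicate 3.

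TTR went the other way over the same days. Its libraries had 159.9, 126.6 and 196.8 CPM at day 7, 20.2 and 65.7 CPM at day 10, 3.72, 14.2 and 27.1 CPM at day 14, and 0.812, 1.39 and 1.87 CPM at day 28. No library of day 28 reached any earlier one from day 7 on, and no library of days 10, 14 or 28 reached those of day 7. At day 10 against day 7 the call was marginal (log2 change -1.91 ± 0.59 SE, adjusted p = 0.0498) and was lost in 10 of the alternatives run, among them DESeq2 (log2 change -1.91, adjusted p = 0.102) and the fit without day 10 replicate 1 (-1.32, adjusted p = 0.461). Without day 10 replicate 2 it was -3.00 and called. At day 28 its log2 change was -6.88 ± 0.66 SE against day 7 (adjusted p = 1.85e-08).

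AMBP had 18.0, 19.4 and 24.0 CPM at day 7, 19.5 and 78.0 CPM at day 10, 32.0, 104.8 and 154.8 CPM at day 14, and 13.9, 24.2 and 22.5 CPM at day 28. The day 28 and day 7 libraries overlapped, with a log2 change of -0.02 ± 0.46 SE (adjusted p = 0.973). RBP4, the plasma carrier of retinol, had 2.15, 0.361 and 0.414 CPM at day 7, 0.129 and 4.24 CPM at day 10, 6.76, 18.5 and 33 CPM at day 14, and 0.148, 0 and 0.216 CPM at day 28. Its day 14 libraries were above those of the other 3 days. The day 28 change against day 14 was -7.18 ± 0.85 SE (adjusted p = 8.87e-07); it was -6.51 without day 14 replicate 3 and -7.78 without day 28 replicate 3. TF, the iron carrier transferrin, had 1.37, 0.601 and 0.518 CPM at day 7, 3.22 and 17.8 CPM at day 10, 15.7, 49.3 and 165.0 CPM at day 14, and 2.29, 2.16 and 2.09 CPM at day 28. Its day 28 change against day 14 was -5.13 ± 0.67 SE (adjusted p = 4.15e-06) and -3.85 without day 14 replicate 3. TF shares exon bases with SRPRB on the same strand, a gene with 14370 counts over all libraries against 2188 for TF, so its counts are uncertain. HPX averaged 2.69 ± 1.45 CPM at day 28 and 32.7 ± 6.65 CPM at day 7.

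**Figure D3:**
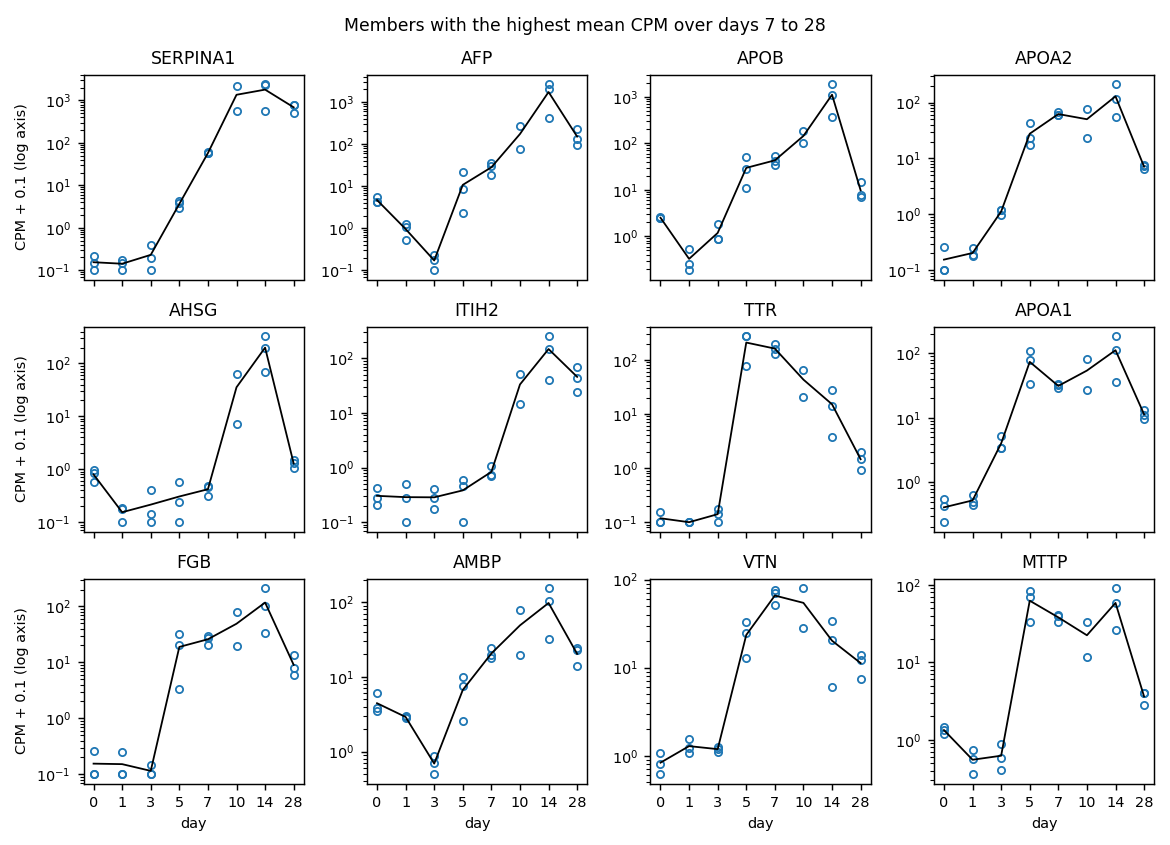
CPM + 0.1 on a log axis against day for the 12 members of highest mean level over days 7 to 28; each circle is 1 library and the line joins the day means. SERPINA1, AFP, APOB, AHSG and ITIH2 have their highest mean at day 14, TTR and MTTP at day 5 and VTN at day 7.

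Among the apolipoproteins, APOB, the structural protein of very low and low density lipoprotein, had 52.9, 41.4 and 34.3 CPM at day 7, 101.7 and 186.0 CPM at day 10, 359.9, 1067 and 1898 CPM at day 14, and 6.94, 7.48 and 14.5 CPM at day 28. Its days did not overlap, with day 28 lowest and day 14 highest. The day 28 change against day 14 was -6.84 ± 0.59 SE (edgeR, adjusted p = 1.10e-08), and -6.17 without day 14 replicate 3. APOA2 had 60.7, 66.8 and 59.4 CPM at day 7, 22.8 and 77.9 CPM at day 10, 55.6, 116.4 and 216.9 CPM at day 14, and 6.34, 7.40 and 7.34 CPM at day 28. APOA1 had 32.9, 28.7 and 31.9 CPM at day 7, 26.6 and 81.5 CPM at day 10, 36.5, 112.4 and 186.7 CPM at day 14, and 9.37, 11.1 and 13.2 CPM at day 28. In both genes each day 28 library was below every library of days 7, 10 and 14. The day 28 change against day 14 was -4.20 ± 0.47 SE for APOA2 (adjusted p = 3.49e-07; -3.57 without day 14 replicate 3) and -3.31 ± 0.47 SE for APOA1 (adjusted p = 1.22e-05; -2.68 without that library).

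APOC1, a small apolipoprotein exchanged between lipoproteins, had between 0.576 and 1.48 CPM at day 28, against between 20.8 and 21.3 CPM at day 0. Its log2 change at day 28 was -4.19 ± 0.43 SE against day 7 (adjusted p = 2.25e-08). APOM, which carries sphingosine-1-phosphate, averaged 2.24 ± 0.476 CPM at day 28 and 18.3 ± 3.04 CPM at day 7; its exons share bases with BAG6 on the opposite strand, which had 63497 counts over all libraries, and whether counting used strand is not stated. APOC3, an inhibitor of triglyceride clearance, was below 2 CPM in every library except 2.50 and 9.20 CPM in day 14 replicates 2 and 3.

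The 3 fibrinogen chains, which assemble into 1 protein, were not level with each other. FGB, the beta chain, had 29.2, 27.5 and 20.6 CPM at day 7, 19.9 and 77.9 CPM at day 10, 33.5, 103.6 and 214.1 CPM at day 14, and 5.75, 7.79 and 13.2 CPM at day 28. Its day 28 libraries were below all those of days 7, 10 and 14. The day 28 change against day 14 was -3.71 ± 0.63 SE (adjusted p = 0.000124, edgeR; -2.90 without day 14 replicate 3). Per kilobase of canonical transcript, FGB was 1.95 to 3.39 times FGG at day 7, 0.977 to 1.17 times at day 10, 0.743 to 0.824 times at day 14 and 0.898 to 2.04 times at day 28. FGG averaged 5.40 ± 0.563 CPM at day 7, 27.5 CPM at day 10 (n = 2), 87.0 ± 70.5 CPM at day 14 and 3.65 ± 1.29 CPM at day 28. Against FGA, FGB was 0.543 to 0.701 times at day 7, 0.522 to 0.928 times at day 10, 1.09 to 1.91 times at day 14 and 0.461 to 0.771 times at day 28. The ratios of day 7 and day 14 did not overlap for either pair, while those of day 28 overlapped day 7 in both; these ratios were not tested.

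VTN had 51.3, 69.5 and 76.6 CPM at day 7, 28.2 and 80.4 CPM at day 10, 5.97, 33.7 and 20.8 CPM at day 14, and 7.30, 12.3 and 14.0 CPM at day 28. Its day 28 libraries lay within the range of day 14 and below all of day 7. At day 28 the change was -0.85 ± 0.43 SE against day 14 (adjusted p = 0.206) and -2.56 ± 0.44 SE against day 7 (adjusted p = 4.24e-05). PLG, the precursor of the clot-dissolving enzyme plasmin, had 1.18, 2.89 and 2.07 CPM at day 7, 1.03 and 10.96 CPM at day 10, 9.12, 20.6 and 63.1 CPM at day 14, and 1.33, 0.540 and 0.935 CPM at day 28. Its day 28 change against day 14 was -5.03 ± 0.70 SE (adjusted p = 2.11e-05; -3.93 without day 14 replicate 3). F2 averaged 1.28 ± 0.242 CPM at day 28 and 30.3 ± 4.18 CPM at day 7, and SERPIND1, the thrombin inhibitor heparin cofactor II, averaged 11.1 ± 7.19 CPM at day 14 and 0.937 ± 0.782 CPM at day 7.

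SERPINA1 was the most abundant member in CPM over days 7 to 28. It had 59.3, 56.6 and 56.5 CPM at day 7, 552.1 and 2173 CPM at day 10, 564.5, 2466 and 2378 CPM at day 14, and 512.8, 791.7 and 765.5 CPM at day 28. Every library from day 10 on was above all day 7 libraries, while day 28 overlapped day 14 through the low day 14 replicate 1. At day 10 against day 7 its log2 change was 4.57 ± 0.51 SE (edgeR, adjusted p = 6.22e-06), or 3.26 without day 10 replicate 2 and 5.22 without day 10 replicate 1. At day 28 it was 3.59 ± 0.47 SE against day 7 (adjusted p = 1.12e-06) and -1.39 ± 0.43 SE against day 14 (adjusted p = 0.0288). The call against day 14 was lost without day 14 replicate 2 or 3, without any 1 of the 3 day 28 libraries and in a fit of the 2 days alone. Its share of the summed CPM of the 35 genes was 8.1% to 8.9% at day 7, 56.3% to 62.3% at day 10, 25.7% to 35.9% at day 14 and 62.6% to 72.8% at day 28.

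**Figure D4:**
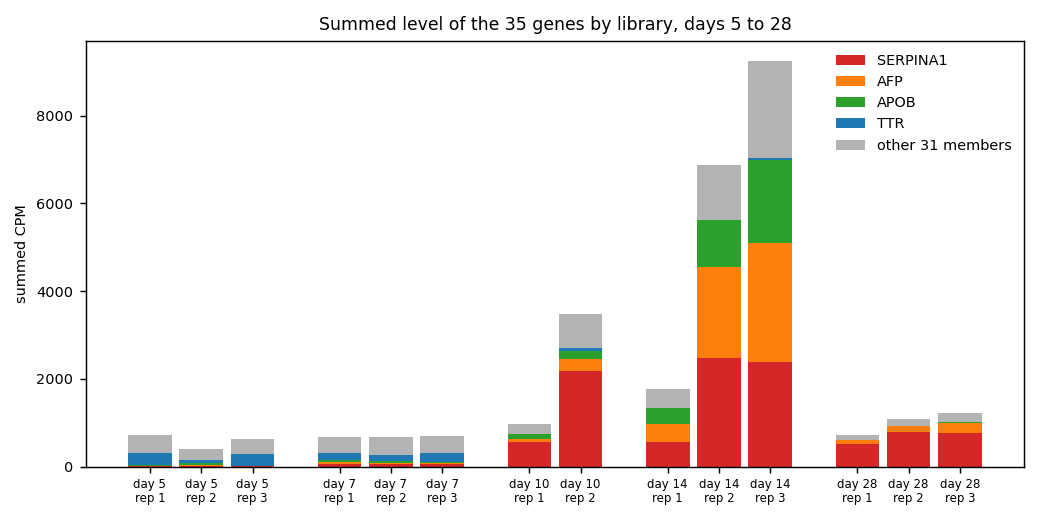
Summed CPM of the 35 genes in each library of days 5 to 28 as stacked bars, with SERPINA1, AFP, APOB and TTR in their own colours and the other 31 members in grey. The sum is highest in day 14 replicate 3 at 9247 CPM, and SERPINA1 makes up most of each day 28 bar.

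AHSG, the mineral-binding protein fetuin-A, and ITIH2, a heavy chain that is linked to hyaluronan, were near 0 until day 7. AHSG had 0.392, 0.361 and 0.207 CPM at day 7, 6.96 and 63.8 CPM at day 10, 69.3, 195.9 and 332.0 CPM at day 14, and 0.959, 1.23 and 1.37 CPM at day 28. ITIH2 had 0.979, 0.601 and 0.621 CPM at day 7, 14.4 and 51.6 CPM at day 10, 39.1, 145.9 and 256.4 CPM at day 14, and 24.2, 44.03 and 68.3 CPM at day 28. Both were clear of day 7 in every later library, but at day 28 AHSG was below all libraries of days 10 and 14 while ITIH2 overlapped both. At day 10 against day 7 the log2 change was 6.81 ± 0.83 SE for AHSG (adjusted p = 1.80e-05; 4.46 without day 10 replicate 2, 7.64 without day 10 replicate 1) and 5.54 ± 0.72 SE for ITIH2 (adjusted p = 3.83e-05; 4.34 and 6.16 without the same libraries). At day 28 against day 14 it was -7.38 ± 0.68 SE for AHSG (adjusted p = 2.71e-08; -6.75 without day 14 replicate 3) and -1.69 ± 0.49 SE for ITIH2 (adjusted p = 0.0184). The ITIH2 call was lost without day 14 replicate 3, without day 28 replicate 1 or 2, and in a fit of the 2 days alone. Against day 7, day 28 was 1.92 ± 0.99 SE for AHSG (adjusted p = 0.11) and 6.0 ± 0.70 SE for ITIH2 (adjusted p = 1.60e-07).

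Of the low members in the same group, SERPINA6, the corticosteroid carrier, averaged 1.28 ± 0.803 CPM at day 28 and 8.42 ± 8.11 CPM at day 14. Of the other heavy chains, ITIH1 averaged 3.22 ± 2.39 CPM and ITIH3 1.46 ± 0.781 CPM at day 14. FETUB, fetuin-B, averaged 0.967 ± 0.472 CPM at day 14.

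The 3 intracellular or membrane genes included MTTP, with 33.1, 41.0 and 39.8 CPM at day 7, 11.6 and 32.9 CPM at day 10, 25.8, 58.1 and 91.3 CPM at day 14, and 2.73, 3.93 and 3.89 CPM at day 28. Its day 28 libraries were below all those of the other 3 days, with a log2 change of -4.05 ± 0.43 SE against day 14 (edgeR, adjusted p = 1.92e-07). A1CF, an RNA-binding cofactor of APOB mRNA editing, averaged 1.15 ± 0.828 CPM at day 7, 42.8 ± 25.6 CPM at day 14 and 6.07 ± 1.81 CPM at day 28. ABCC2, an exporter of bile conjugates, averaged 1.21 ± 0.626 CPM at day 28 and 21.97 ± 16.4 CPM at day 14. A1CF shares exon bases with ASAH2B on the opposite strand, which had 1600 counts over all libraries against 1566 for A1CF.

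The order of levels between genes was read per kilobase of canonical transcript. At day 7 TTR led with 261.6 ± 57.0 CPM per kb (SD, n = 3), followed by APOA2 with 131.5 ± 8.4, APOC1 with 41.9 ± 3.0 and VTN with 40.5 ± 8.0; the last pair differed by less than their spread. At day 14 AFP had 717.1 ± 490.5 CPM per kb and SERPINA1 599.8 ± 357.1, which did not differ beyond their spread, and APOA2 had 273.5 ± 171.8. At day 28 SERPINA1 had 229.5 ± 51.2 CPM per kb, AFP 62.2 ± 28.0 and AMBP 16.0 ± 4.4. APOA2 at 14.8 ± 1.3 and ITIH2 at 14.5 ± 7.0 lay within the spread of AMBP.

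Several members are neighbours in the genome, and neighbours did not keep to 1 level. By their GENCODE spans, ALB at chr4:73397114-73421482 and AFP at chr4:73431138-73456174 (GRCh38, both on the plus strand) lie 9655 bases apart with no protein-coding gene between them. The RefSeq promoter windows shown for both genes lie inside these spans, so the starts of the 2 sources differ. Per kilobase, AFP was 40.7 to 87.1 times ALB at day 7, 14.1 to 22.1 times at day 10, 74.2 to 98.0 times at day 14 and 6.65 to 17.4 times at day 28. ALB had only 11 counts over day 7, so the ratios of that day are uncertain. The day 14 ratios were above those of days 10 and 28 without overlap, and the ratios were not tested. AHSG at chr3:186613060-186621318 and FETUB at chr3:186635969-186653141 lie 14650 bases apart, and AHSG was 112.1 to 299.8 times FETUB at day 14, when FETUB had 24 counts over the 3 libraries. APOA4, APOC3 and APOA1 share a stretch of chromosome 11, where APOA1 was 12.1 to 64.3 times APOC3 at day 14. The upper value rests on 3 APOC3 counts in day 14 replicate 1.

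The difference between libraries of the same day was itself uneven across members. At day 10, the ratio of replicate 2 to replicate 1 ran from 1.68 for APOC1 to 32.9 for RBP4, which had 1 count in replicate 1. At day 14 that of replicate 3 to replicate 1 ran from 1.47 for APOM to 27.2 for APOC3, which had 3 counts in replicate 1. Among members with more counts, AHSG had a ratio of 9.16 at day 10 (54 counts in replicate 1). AFP had 6.53 at day 14 (3700 counts in replicate 1). By comparison, the median ratios to replicate 1 were 1.1 and 0.98 at day 7 over 19 members and 1.36 and 1.5 at day 28 over 26 members. Of the endodermal and hepatic transcription factors with at least 30 counts, 14 of 15 were above 1 at day 10 (median ratio 1.75), and 15 and 14 of 17 at day 14 (medians 2.58 and 2.83). By the same minimum, other liver-secreted proteins had a median of 2.13 at day 10 (10 of 10 above 1). At day 14 their medians were 2.16 and 3.29 (17 of 20 in both). Hepatocyte enzymes and transporters had 2.14 at day 10 (6 of 8) and 2.16 and 3.09 at day 14 (12 and 11 of 14). Genes of gut, pancreas and yolk sac epithelium had 1.32 at day 10 (8 of 10) and 1.76 and 2.17 at day 14 (10 of 11 in both). Epicardial and fibroblast genes had a median of 2.16 at day 10 (4 of 5 above 1) and 1.56 and 1.23 at day 14 (6 and 5 of 6). Pluripotency genes had a median of 0.86 at day 10 (2 of 5) and 2.49 and 1.6 at day 14 (3 of 3 in both), and endothelial genes 0.91 at day 10 and 1.06 and 1.23 at day 14. For cardiomyocyte genes the median was 0.96 at day 10 and 1.02 and 0.97 at day 14. The part of cell composition in these differences was not tested.

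**Figure D5:**
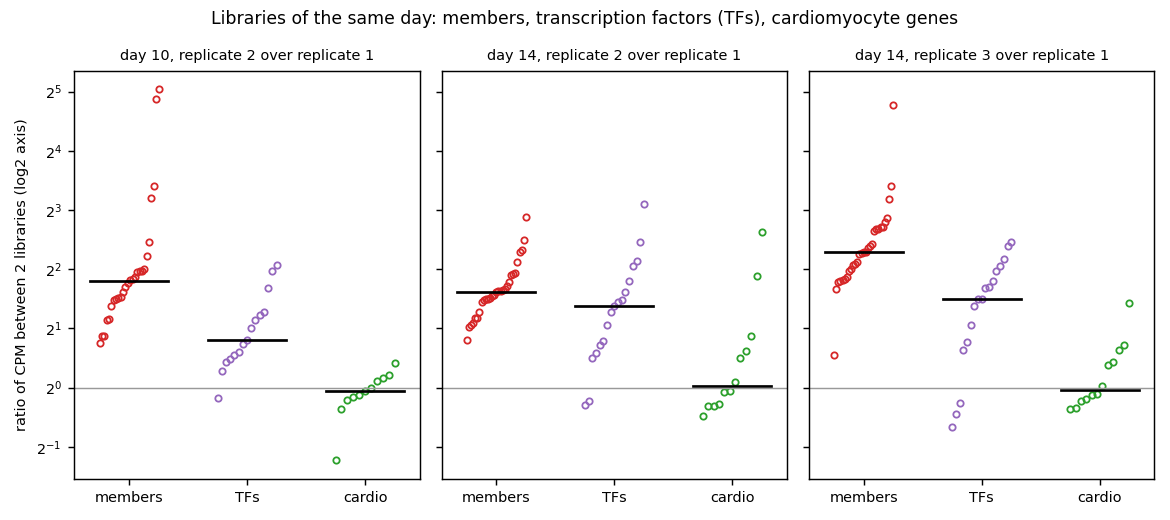
Ratio of CPM between 2 libraries of the same day, on a log2 axis, for the members, endodermal and hepatic transcription factors (TFs) and cardiomyocyte genes (cardio) with at least 30 counts at that day; each circle is 1 gene and the black line is the median. The members lie above 1 in all 3 panels, with medians of 3.46, 3.05 and 4.88, and the cardiomyocyte medians are 0.96, 1.02 and 0.97.

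Other genes of the same tissue were counted from lists of known markers. Of 34 other liver-secreted proteins, 27 were tested, and at day 28 against day 14, 15 were lower and 3 higher (median log2 change -1.81). Among all tested genes, 7.78% were lower and 7.96% higher in that comparison, and the same shares stand beside the day 28 lists below. The most abundant was A2M, the broad protease inhibitor alpha-2-macroglobulin, with between 290.2 and 316.4 CPM at day 28 and between 254.5 and 442.6 CPM at day 14, which did not pass (adjusted p = 0.80). SERPINF2, which inhibits plasmin, had 2.14, 3.55 and 2.66 CPM at day 28, against 20.04, 60.8 and 84.9 CPM at day 14 (log2 change -4.31, edgeR, adjusted p = 1.45e-06). GC, the vitamin D-binding protein, had 2.58, 3.24 and 8.56 CPM at day 28, against 0.113, 0.357 and 0.126 CPM at day 14 (log2 change 4.53, edgeR, adjusted p = 1.70e-05), and its libraries did not overlap.

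Of the 18 transcription factors, 10 were lower at day 28 than at day 14 and 0 higher, with a median of -1.79; among them were CEBPA, FOXA1, FOXA2, FOXA3, HHEX, HNF4A and HNF4G. HNF4A, a nuclear receptor of hepatic and gut endoderm, had 4.06, 5.01 and 6.26 CPM at day 28, against 9.35, 25.4 and 42.1 CPM at day 14 (log2 change -2.32, edgeR, adjusted p = 0.000656). At day 10 against day 7, when 10 members were called higher, 4 of the 18 factors were lower, FOXA1, FOXA2 and HHEX among them, and 0 were higher. All tested genes were lower in 3.49% and higher in 4.16% there, and day 10 had 2 libraries. FOXA2, a forkhead factor of endoderm, had 9.54 and 16.7 CPM at day 10, against 36.2, 50.7 and 55.1 CPM at day 7 (log2 change -1.85, adjusted p = 0.0144). GATA4, which both heart and endoderm express, lay between 211.8 and 251.6 CPM at day 28 and between 159.7 and 191.3 CPM at day 14 and did not pass (adjusted p = 0.317).

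Of the 23 hepatocyte enzymes and transporters, 15 were tested and 8 were lower at day 28 than at day 14, with 0 higher. ASGR1, a subunit of the hepatocyte asialoglycoprotein receptor, had 2.43, 3.86 and 1.73 CPM at day 28, against 9.57, 21.8 and 31.1 CPM at day 14 (log2 change -2.96, edgeR, adjusted p = 2.92e-05). Of 16 genes of gut, pancreas and yolk sac epithelium, 15 were tested, and 4 were lower and 1 higher. Of 12 cardiomyocyte genes 6 were higher and 1, MYH6, lower; the list summed to 47760, 49580 and 35340 CPM at day 28, against 23230, 24480 and 23640 CPM at day 14. Epicardial and fibroblast genes counted 4 higher and 1 lower of 9, endothelial genes 1 higher and 3 lower of 6, and pluripotency genes 3 lower of 6. These lists moved in the same comparison as the members, and their part in the members' levels was not tested.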

How the data were processed

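The deposited table holds raw counts per gene and library. Per the submitters' processing notes, the authors used Trim Galore 0.65, STAR 2.7.0, HTSeq and GRCh38; the counting strand is not given in the sources used here. Libraries were made with a stranded total RNA kit, per the labels' protocols. Ensembl IDs were given symbols from GENCODE release 44, which held 56387 of the 57477 IDs used; 44 PAR_Y entries with 0 counts were left out. Columns were matched to samples by library name. Genes were kept by filterByExpr (minimum count 10), scaled by TMM and fitted with day as a factor over all 23 libraries in edgeR 4.0.16 (glmQLFit, robust), in R 4.3.3. Replicate numbers were not treated as pairs. SE is the log2 change over the square root of F. The script was tested on simulated data. DESeq2 1.42.0 was an alternative, and other scalings, filters and left-out libraries were also run. Values in every library are given for the 12 members of highest mean CPM over days 7 to 28 and the 4 others with the largest called log2 change in comparisons among days 7 to 28. Other lists are named by up to 4 genes of highest CPM, and GC, HNF4A and FOXA2 were named after their values were seen. The members, lists and rules were chosen with earlier results of these data known. A few genes of the other lists are counted but not reported here by name.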

Additional observations from a re-analysis of the deposited data

How the results depend on the processing

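At day 5 against day 3 (16 higher), day 28 against day 14 (26 lower) and day 28 against day 7 (5 higher, 12 lower), each count stayed within 1.5 times under all alternatives. The others moved. Without a filter on low counts, 7 members were higher at day 3 against day 0 in place of 4, 8 were higher and 1 lower at day 7 against day 5 in place of 4 and 0, and 16 were higher and 2 lower at day 14 against day 10 in place of 8 and 0. A minimum count of 30 left 2 lower calls at day 3 in place of 5. A fit of days 10 and 14 alone gave 3 higher calls in place of 8. Leaving out both low libraries of days 10 and 14, an alternative chosen after seeing the data, gave 1 higher call at day 14 against day 10 in place of 8 and 0 lower calls at day 10 against day 7 in place of 3. With 1 library left out at a time, the counts were 3 to 5 higher and 2 to 4 lower at day 3, 1 to 4 higher and 0 to 1 lower at day 7, 3 to 9 higher and 0 to 4 lower at day 10, and 0 to 11 higher and 0 to 1 lower at day 14. Where this left day 10 with 1 library, that library was assumed to vary like the others.

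With the replicate number as a block, 2 members were lower at day 14 against day 10 in place of 0, and the call of TTR at day 10 was lost (adjusted p = 0.0775); no other called member was lost. Over all genes, same-numbered libraries did not deviate together in every pair (correlations of -0.46 to 0.28). Among the members, replicate 1 was lowest in 26 of 26, 29 of 29 and 17 of 26 at days 10, 14 and 28. At day 7 replicate 1 was lowest in 8 of 19 and replicate 3 in 9. Of 93 calls of members, DESeq2 lost 5, and no alternative turned a direction. Levels near 0 rest on few counts, as for RBP4 with 5 counts over day 28.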
